A study of Homo sapiens with 4 samples.

Results

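The long intergenic noncoding RNAs that carry a LINC number and had reads in bronchial epithelial cells were described in cells exposed to cadmium and in control cells. The members were the genes whose symbol is LINC followed by digits only and whose reads, summed over all 4 libraries, came to at least 40. This left 96 of the 619 LINC genes in the deposited tables, among 25411 genes in all. Of the other LINC genes, 356 had 0 reads in every library and 167 had between 1 and 39. The members were thus chosen by their summed reads, and the sum mixes both groups, so a LINC RNA that was low in control could enter through its cadmium reads. At the edge, LINC00634 and LINC00337 entered with 40 reads each. LINC00087 stayed out with 39, of which 27 and 7 lay in the cadmium libraries and 5 and 0 in the control libraries.

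The cells were BEAS-2B, a virus-immortalised line from human bronchial epithelium. The 2 cadmium libraries came from cells kept with 5 µM cadmium chloride for 72 h, and the 2 control libraries from cells grown for 72 h without it. The labels assign the controls to one experiment and the cadmium cells to another, so experiment and treatment cannot be told apart. Nothing in the labels says that the libraries of a group came from separate cultures, so each p-value is set against library-to-library spread, part or all of which may be technical. The title of the series names the induction of SNAIL1 by cadmium as the study's question, and the LINC RNAs were measured beside it.

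A long intergenic noncoding RNA is a transcript from between coding genes that is spliced and capped like a messenger RNA but was annotated without a protein. LINC numbers are given to such transcripts before anything is known of them, and some lose the number later: when the RNA gains a described role, when it proves to host small RNAs, or when its reading frame is shown to make a small protein. Most are made in few copies per cell and in few cell types. Cadmium is a toxic metal that enters the airway with tobacco smoke and binds protein thiols, and cells answer it through metal-responsive, antioxidant and heat-shock transcription factors.

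The deposited tables held 29937242 and 15537382 reads assigned to genes in the cadmium libraries, against 26529403 and 8609243 in the control libraries. The LINC RNAs took 0.0813% and 0.0799% of these reads in the cadmium libraries and 0.0702% and 0.0760% in the control libraries. A count of 3 reads, the limit that a count of 0 allows, stood for 0.0980 and 0.190 CPM (reads scaled to library size) in the cadmium libraries and for 0.115 and 0.356 CPM in the control libraries, a limit that covers counting error only. Of markers of bronchial epithelium, KRT7, KRT8, KRT18 and EPCAM were detected, while CDH1 had 55 reads in all, KRT19 had 11 and KRT5, a basal cell keratin, had 1. Of markers of other cells, CD3E and LYZ of leukocytes, PECAM1 of endothelium, DCN of fibroblasts and SFTPC of alveolar cells had 0 reads, but others on these lists had reads. Of the other leukocyte markers PTPRC had 4 reads in all, and CD14 was present at 11.2 and 7.41 CPM with cadmium against 6.79 and 11.4 CPM in control, with overlapping groups. Other fibroblast markers were present, with PDGFRB at 187 and 205 CPM with cadmium against 162 and 185 CPM in control. LUM had 24 reads in all. The summed level of the fibroblast list was 3452 and 3277 CPM with cadmium against 4539 and 3724 CPM in control, nearly all of it COL1A1. Of its 3 tested genes 0 passed with edgeR (1 had an unadjusted p under 0.05, DESeq2 called 1 and limma-voom 0). Of 5 tested epithelial markers EPCAM was higher and KRT7 lower with cadmium, and the list summed to 1087 and 1197 CPM with cadmium against 1269 and 1476 CPM in control. Of 4 endothelial markers TIE1 was the only one with 40 or more reads and was higher (log2 fold change 1.69, edgeR adjusted p = 0.0162). VWF had 29 reads in all and CDH5 had 2. The endothelial list summed to 3.69 and 3.29 CPM with cadmium against 1.23 and 1.19 CPM in control. The part of these markers in the results was not tested. In bulk RNA such as this, fewer cells making an RNA and less RNA per cell cannot be told apart.

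Most of the 96 LINC RNAs were scarce. On the authors' RPKM scale, which corrects reads for transcript length and library size and so allows genes to be compared, 49 had a mean below 1, 40 lay between 1 and 10, and 7 reached 10 or more. The median LINC RNA had 163.5 reads over the 4 libraries, against 2468 for all 13594 genes with 40 or more reads. The most abundant was LINC00493, with 107 and 103 RPKM in the cadmium libraries and 99.2 and 107 RPKM in the control libraries. The groups overlapped, and RefSeq now lists the gene as SMIM26, which makes a small mitochondrial protein. Next came LINC00152, now CYTOR, a cytoplasmic RNA known for high levels in tumours, with 26.9 and 26.3 RPKM in the cadmium libraries against 30.1 and 35.0 in control. Both cadmium values lay below both controls, but the difference did not pass (log2 fold change -0.34, SE 0.14, edgeR adjusted p = 0.135). CYTOR has a near-identical copy elsewhere on its chromosome, whose transcript is deposited as MIR4435-1HG, so reads may have been split between them.

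LINC00657, the third in order, is NORAD, an abundant cytoplasmic RNA that binds Pumilio proteins and is known to respond to DNA damage. It had 27.9 and 27.3 RPKM with cadmium, against 22.6 and 22.4 RPKM in control. The pairs were tight and did not overlap, yet the log2 fold change of 0.26 (SE 0.079) just missed the threshold of 0.05 (edgeR adjusted p = 0.0551). LINC00116, described below with the RNAs that changed, had 13.5 and 12.2 RPKM in the cadmium libraries and 16.5 and 18.1 RPKM in the control libraries. LINC00094, now listed as the coding gene BRD3OS, had 11.4 and 11.2 RPKM with cadmium and 10.3 and 11.6 RPKM in control, with overlapping groups. LINC00094 overlaps BRD3, a reader of acetylated histones with 6904 reads, on the opposite strand. With counts not stated to use strand, reads from the stretch they share cannot be told apart. LINC00839 had 10.2 and 9.78 RPKM with cadmium, against 11.3 RPKM in each control library. LINC00998, now SMIM30 and the source of a small membrane protein, had 11.1 and 11.6 RPKM with cadmium against 9.01 and 9.03 RPKM in control. Neither of these passed, with log2 fold changes of -0.21 (edgeR adjusted p = 0.218) and 0.31 (edgeR adjusted p = 0.197). In this order of levels LINC00493 stood far above the rest; LINC00152 and LINC00657, and likewise LINC00094, LINC00839 and LINC00998, had ranges over the 4 libraries that overlapped or touched those of their neighbours.

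**Figure D1:**
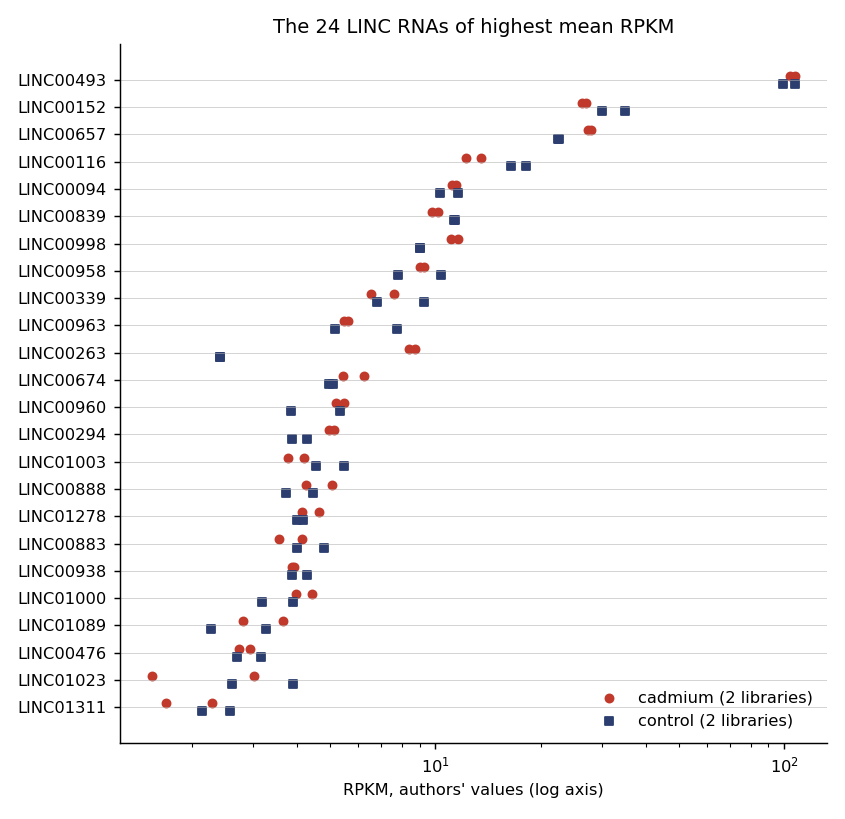
Level of the 24 LINC RNAs of highest mean RPKM in each library (x axis, RPKM on a log scale; 1 row per RNA; circles, 2 cadmium libraries; squares, 2 control libraries). LINC00493 leads at a mean of 104 RPKM, and LINC00263 is the RNA whose cadmium and control points lie farthest apart.

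In all, 5 of the 96 LINC RNAs differed between cadmium and control cells. LINC00707, LINC00950, LINC00263 and LINC01273 were higher with cadmium, and LINC00116 was lower. That is 4.17% higher and 1.04% lower, against 8.77% and 7.5% of all 13594 genes with the same minimum of reads. In either direction 5.21% of the LINC RNAs were called, against 16.3% of all genes and 5.74% of the 1062 genes with a noncoding RefSeq identifier. Among those noncoding genes 3.58% were higher and 2.17% lower, and the LINC RNAs lay near that background. Calls were made with edgeR's quasi-likelihood test at a Benjamini-Hochberg adjusted p under 0.05 over all 13594 genes. Other readings of the same counts gave other numbers. DESeq2 gave an adjusted p to 69 of the 96 and called 1 higher and 0 lower, against 7.39% and 6.98% of genes. With limma-voom 8 were higher and 1 lower, against 10.5% and 9.17% of genes. In the table deposited by the authors, 1 LINC RNA was higher and 0 lower, against 7.23% and 7.34% of the same genes. All 3 called LINC00263.

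The calls were spread unevenly over the ranges of summed reads. Of the 40 LINC RNAs with 40 to 99 reads 3 were called (7.5%), against 7.83% of all genes in that range. Of the 24 with 400 or more reads 2 were called (8.33%), against 17.7% of genes. None of the 32 with 100 to 399 reads was called by edgeR, where 12.6% of genes were; 3 of them had an unadjusted p under 0.05, DESeq2 called 0 and limma-voom called 1. Among genes with 40 to 99 reads 7.28% were higher and 0.553% lower, and the 3 LINC RNAs called in that range were all higher. Of the 96 LINC RNAs 19 reached 40 reads through their cadmium reads only and 0 through their control reads only, and the cadmium libraries also held more reads. LINC00707 (54 cadmium and 4 control reads) and LINC01273 (58 and 14) were among these 19. So were LINC00473 (44 and 6), LINC00173 (48 and 10) and LINC00663 (70 and 20), described below. LINC00950, with 36 and 6, reached 40 in neither group alone. The counts and fold changes of low LINC RNAs that were higher are therefore a description, given beside a background that passed the same minimum.

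**Figure D2:**
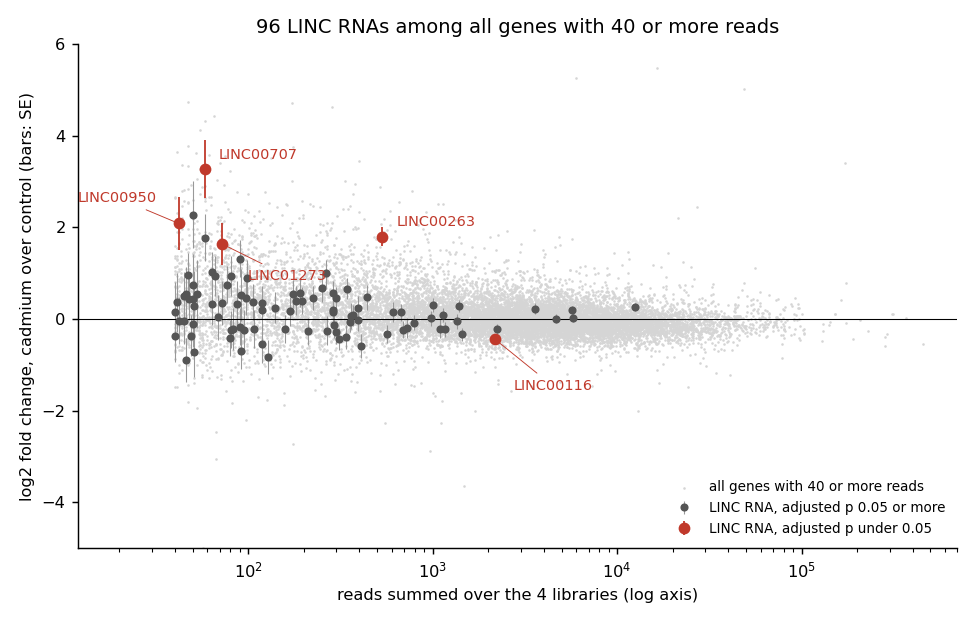
Log2 fold change, cadmium over control (y axis; bars, SE), against reads summed over the 4 libraries (x axis, log scale) for the 96 LINC RNAs and for all 13594 genes with 40 or more reads (grey); 14 genes lie outside the plotted range of -5 to 6. The other RNAs that were higher have under 100 reads, while LINC00263 stands apart at 532 reads.

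LINC00263 gave the firmest difference. RefSeq now names it OLMALINC, for a role in the maturation of oligodendrocytes, and in human liver cells it has been described as acting on its neighbour SCD. The gene lies at chr10:102133333-102148111 on the plus strand (hg19) and overlaps no other gene of the tables. It had 284 and 154 reads in the cadmium libraries, against 71 and 23 in the control libraries. In CPM this was 9.28 and 9.75 with cadmium and 2.73 and 2.73 in control. Both cadmium values were well above both controls and each pair was nearly identical. The log2 fold change was 1.80 (SE 0.21, edgeR adjusted p = 0.00358). The authors' deposited table gave 8.56 RPKM with cadmium and 2.41 RPKM in control, and a log ratio of 1.20. How that log ratio was computed is not stated, so it is not like for like with the edgeR value. The adjusted p there was 4.58e-06, and LINC00263 was the only LINC RNA under 0.05. It passed in all 13 alternative fits, with log2 fold changes from 1.77 to 1.87.

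The sequence around the start of OLMALINC is shown because it is the RNA with the firmest change. It covers 250 bases before and 50 after the RefSeq start (GRCh38.p14, chr10:100373326-100373625, plus strand). Capitals mark the match to TGACNNNGC, the core of the antioxidant response element that NRF2 binds, which begins 123 bases before the start.
OLMALINC: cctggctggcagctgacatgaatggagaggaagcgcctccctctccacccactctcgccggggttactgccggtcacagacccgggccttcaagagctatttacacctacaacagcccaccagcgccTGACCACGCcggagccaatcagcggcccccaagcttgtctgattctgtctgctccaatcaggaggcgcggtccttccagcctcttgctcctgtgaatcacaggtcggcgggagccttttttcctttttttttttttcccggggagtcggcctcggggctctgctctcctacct
The letters TGACNNNGC, on either strand, were in 13.6% of the 27305 RefSeq promoters of the same length used here and in 19 of the 72 LINC RNA promoters in that table (26.4%). The core of the metal response element (TGCACNC or TGCGCNC) was in 29.3% of promoters and in 16 of the 72 (22.2%). A heat shock element written as GAANNTTC or TTCNNGAA was in 13.7% of promoters and in 9 of the 72 (12.5%). A match is a description of letters and not a bound site. The promoters' base composition was not matched.

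LINC00707 had the largest fold change of the 96. It is an RNA studied mainly in tumour cells, and it lies at chr10:6821560-6884868 on the plus strand (hg19), far from the nearest coding gene with 40 or more reads, SFMBT2, which lies 315718 bases away. It had 32 and 22 reads with cadmium and 2 and 2 reads in control. Both cadmium libraries lay far above both controls, but the control level rests on 4 reads. The ratio of reads per TMM-scaled library size was 10.03, with an exact 95% interval of 3.70 to 38.1 that covers counting error only. The log2 fold change was 3.26 (SE 0.63, edgeR adjusted p = 0.0143). Without control replicate 1 the call was lost (edgeR adjusted p = 0.0760), and the authors' deposited table gave it an adjusted p of 1.

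LINC00950 and LINC01273 were also low RNAs. LINC00950 (chr9:35860271-35865515, plus strand, hg19) had 25 and 11 reads with cadmium and 4 and 2 reads in control. Its groups did not overlap, and the log2 fold change was 2.08 (SE 0.58, edgeR adjusted p = 0.0436). RefSeq now lists the symbol as a synonym of TMEM8B, a coding gene that ends 5427 bases away in the deposited annotation. TMEM8B itself had 27.2 and 21.6 CPM with cadmium against 15.3 and 19.8 CPM in control and did not pass (log2 fold change 0.51, SE 0.17, edgeR adjusted p = 0.0803). The call for LINC00950 was lost in 6 of the 12 alternatives that gave it an adjusted p, with the replicate block among them (edgeR adjusted p = 0.0574), and without either cadmium library or control replicate 1.

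LINC01273 (chr20:48789107-48793208, plus strand, hg19) had 39 and 19 reads with cadmium and 12 and 2 reads in control. In CPM it had 1.27 and 1.20 with cadmium against 0.461 and 0.238 in control. The cadmium pair was tight and lay above both controls. The log2 fold change was 1.64 (SE 0.46, edgeR adjusted p = 0.0445). The call was lost without control replicate 1 (edgeR adjusted p = 0.0606), with counts thinned to equal depth (edgeR adjusted p = 0.0564) and without either cadmium library (edgeR adjusted p = 0.216 without replicate 1 and 0.137 without replicate 2). The gene lies between TMEM189 and CEBPB, 183687 bases from SNAI1, the gene of SNAIL1, which the title of the series names. Of the other LINC RNAs that were higher, LINC00707 has no promoter in the RefSeq table. LINC00950 is listed only as a synonym of TMEM8B, whose promoter was not taken for it. The promoter of LINC01273 is shown beside that of OLMALINC. It is from GRCh38.p14, chr20:50172320-50172619, plus strand, and capitals again mark TGACNNNGC, here 134 bases before the start.
LINC01273: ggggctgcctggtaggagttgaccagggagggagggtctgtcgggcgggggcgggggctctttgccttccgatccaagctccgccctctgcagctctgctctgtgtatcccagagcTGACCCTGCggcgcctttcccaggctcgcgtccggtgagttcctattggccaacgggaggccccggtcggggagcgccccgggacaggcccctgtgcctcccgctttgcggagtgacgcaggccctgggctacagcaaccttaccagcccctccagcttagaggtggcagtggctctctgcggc

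LINC00116 was the only LINC RNA that was lower. It is now MTLN and makes mitoregulin, a small protein of the mitochondrial inner membrane, so its row is that of a short coding gene. It lies at chr2:110969106-110980517 on the minus strand (hg19). It had 750 and 353 reads with cadmium against 798 and 284 reads in control, in libraries of unequal depth. Scaled to depth, these were 24.5 and 22.3 CPM with cadmium and 30.6 and 33.7 CPM in control. Both cadmium values lay below both controls. The log2 fold change was -0.45 (SE 0.12, edgeR adjusted p = 0.0405), a small change measured on many reads. The call was lost with DESeq2 (adjusted p = 0.0688), with scaling by library size alone (edgeR adjusted p = 0.0635), with the replicate block (edgeR adjusted p = 0.0639), with counts thinned to equal depth (edgeR adjusted p = 0.0815) and without either cadmium library (edgeR adjusted p = 0.153 without replicate 1 and 0.265 without replicate 2). The authors' deposited table gave an adjusted p of 0.0544.

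The promoter of MTLN (GRCh38.p14, chr2:110212498-110212797, minus strand, written as transcribed) is shown as that of the RNA that was lower. It held a match to each of the 3 motifs. Capitals mark, in order, the heat shock element 182 bases before the start, the antioxidant element 25 bases before it and the metal response core 4 bases after it. The antioxidant element was also matched in the promoters of OLMALINC and LINC01273 shown above, while the heat shock and metal response letters had no match there. The part of these matches in the changes was not tested.
MTLN: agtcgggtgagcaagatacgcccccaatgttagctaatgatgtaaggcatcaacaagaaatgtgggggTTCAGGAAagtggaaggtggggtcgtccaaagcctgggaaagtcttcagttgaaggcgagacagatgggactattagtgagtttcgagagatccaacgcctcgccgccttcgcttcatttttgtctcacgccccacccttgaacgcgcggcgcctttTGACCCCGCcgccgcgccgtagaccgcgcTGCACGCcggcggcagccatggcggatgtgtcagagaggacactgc

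**Figure D3:**
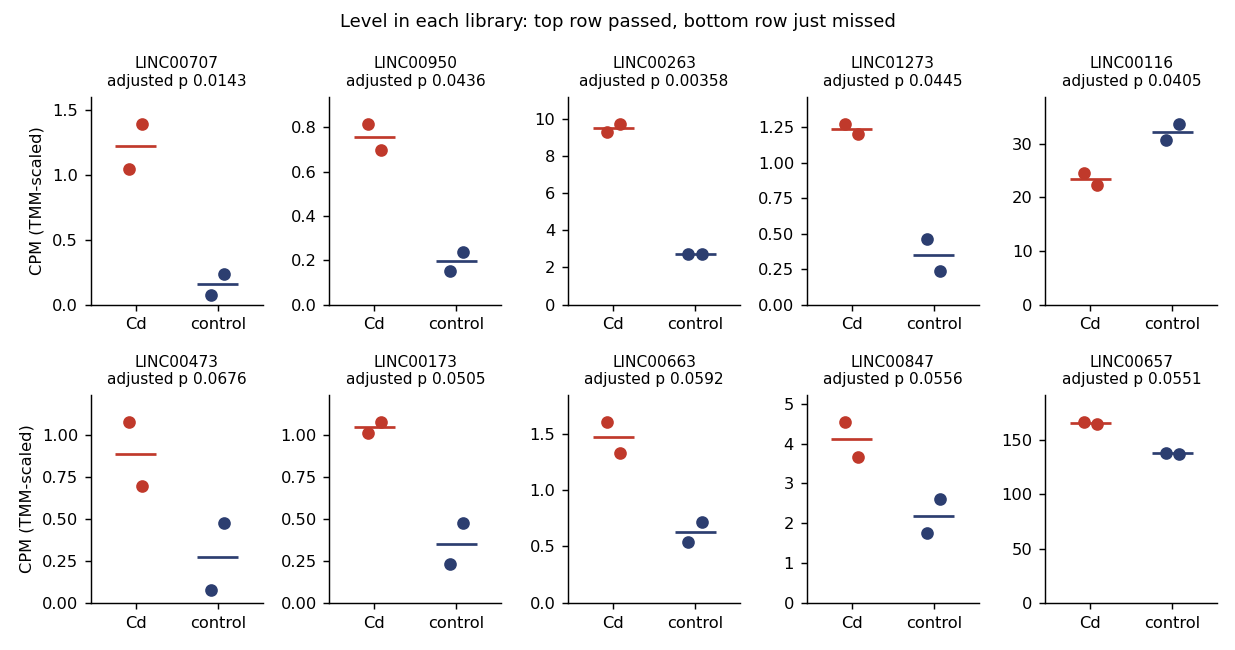
CPM in each library (points; bars, group means) for the 5 LINC RNAs that passed an adjusted p of 0.05 (top row) and the 5 that lay between 0.05 and 0.07 (bottom row), cadmium on the left and control on the right of each panel. In all 10 panels the groups do not overlap; the levels range from under 1 CPM for LINC00950 to 166 CPM with cadmium for LINC00657.

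A further 5 LINC RNAs lay just past the threshold, at adjusted p between 0.05 and 0.07, and are named for that after their values were seen. All had both cadmium libraries above both controls. NORAD, given above, is the abundant one. LINC00173 had 1.01 and 1.08 CPM with cadmium against 0.230 and 0.475 CPM in control (log2 fold change 1.77, SE 0.52, edgeR adjusted p = 0.0505). LINC00663 had 1.60 and 1.33 CPM with cadmium against 0.537 and 0.713 CPM in control (log2 fold change 1.32, SE 0.41, edgeR adjusted p = 0.0592). LINC00847 had 4.54 and 3.67 CPM with cadmium against 1.77 and 2.61 CPM in control (log2 fold change 0.99, SE 0.30, edgeR adjusted p = 0.0556). LINC00847 overlaps HEIH on the opposite strand, so the 2 cannot be told apart in these counts. LINC00473, an RNA known to be induced by cAMP signalling through CREB, had 33 and 11 reads with cadmium against 2 and 4 reads in control. Its log2 fold change of 2.28 had a wide SE of 0.73 (edgeR adjusted p = 0.0676). DESeq2 passed none of these 5, giving no adjusted p to LINC00473 and LINC00173, while limma-voom passed 4 of them, all but LINC00663.

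**Figure D4:**
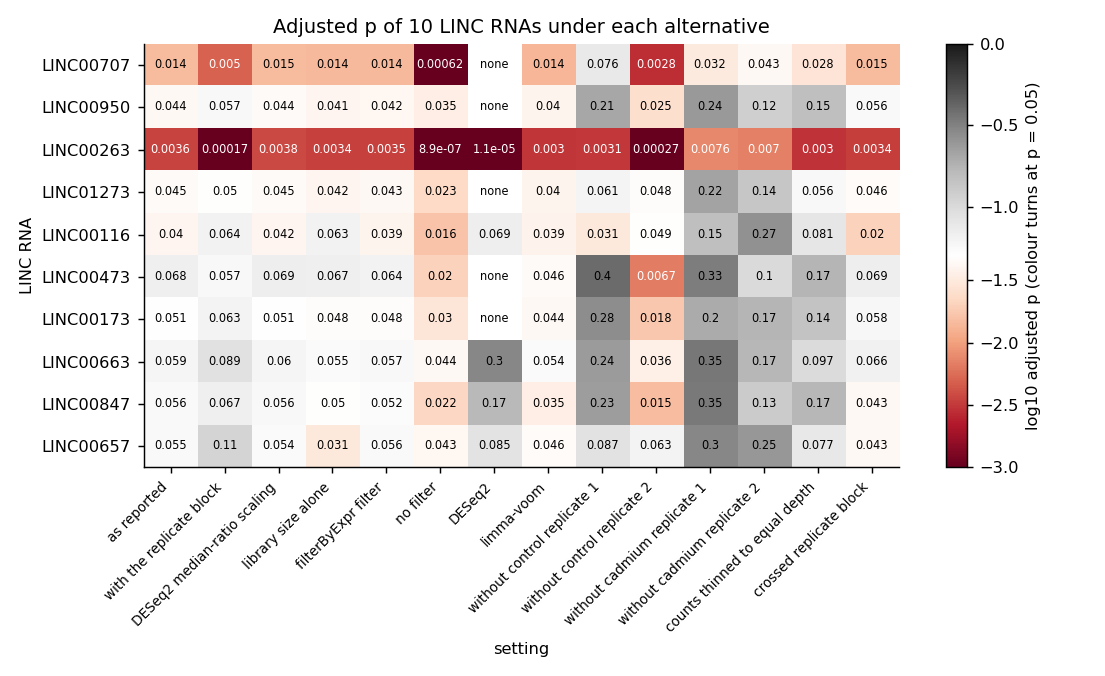
Adjusted p of the same 10 LINC RNAs (rows) in the reported fit and under 13 alternatives (columns), with the colour turning from red to grey at 0.05; "none" marks RNAs that DESeq2 gave no adjusted p. LINC00263 is below 0.05 in every column, and the other 9 cross the threshold in at least 1.

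As a body, the LINC RNAs were spread on both sides of 0. The log2 fold change was above 0 for 60 and below 0 for 36, its median was 0.18, and it ranged from -0.89 to 3.26. The median over all genes was 0.0022. Low genes leaned the same way as low LINC RNAs: between 40 and 99 reads the median was 0.40 for the LINC RNAs and 0.35 for all genes, between 100 and 399 reads it was 0.18 for the LINC RNAs and 0.25 for all genes, and at 400 or more reads it was 0.0072 for the LINC RNAs and -0.029 for all genes. Without control replicate 1, the median of the LINC RNAs was -0.015. The change was within 0.5 of 0 for 66 of the 96 and beyond 1 for 8.

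The spread between libraries of the same group is given beside the distance between groups. The median absolute log2 difference was 0.21 between the 2 cadmium libraries and 0.39 between the 2 control libraries, and 0.30 between the group means. A mean of 2 libraries varies less than a single library, so the last value is not like for like with the others. Both cadmium values lay above both controls for 30 LINC RNAs (31.2%), against 31.3% of all genes. They lay below both controls for 17 (17.7%), against 30.8% of all genes. The first share is at the background of all genes and the second is below it. That background was not matched for reads, whose median was 163.5 for the LINC RNAs and 2468 for all genes. The median SE of a log2 fold change was 0.32 for the LINC RNAs and 0.13 for all genes.

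None of the 5 LINC RNAs with the lowest fold changes passed with edgeR, DESeq2 or limma-voom, and none had an unadjusted edgeR p under 0.05. DESeq2 gave no adjusted p to LINC00565 and LINC01347. LINC00565, now SWINGN, had 0.359 and 0.506 CPM with cadmium against 0.806 and 0.713 CPM in control (log2 fold change -0.89, SE 0.48, edgeR adjusted p = 0.233). LINC00665 had 1.05 and 1.52 CPM with cadmium against 1.88 and 2.73 CPM in control (log2 fold change -0.82, SE 0.37, edgeR adjusted p = 0.161). LINC01347 and LINC00242, with 51 and 91 reads in all, had log2 fold changes of -0.71 (SE 0.55, edgeR adjusted p = 0.407) and -0.70 (SE 0.39, edgeR adjusted p = 0.248). LINC01184, which starts beside SLC12A2 on the other strand, had 4.90 and 3.42 CPM with cadmium against 5.49 and 7.60 CPM in control (log2 fold change -0.59, SE 0.27, edgeR adjusted p = 0.162). In each of the 5, both cadmium libraries lay below both controls.

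A list of 22 LINC RNAs with a described role, of which 12 had 40 or more reads, gave no call by edgeR, against 16.3% of all genes. The list was not complete: LINC00263, which has a described role and passed, was placed in a list of host genes instead. Of the 12, 3 had an unadjusted p under 0.05, and limma-voom called 2, LINC00657 and LINC00473, where it called 19.7% of all genes. DESeq2 called 0 and gave no adjusted p to LINC00473. The median log2 fold change of the 12 was -0.085. LINC00673 had 4.08 and 3.23 CPM with cadmium against 1.92 and 2.97 CPM in control, a log2 fold change of 0.67 (SE 0.31, edgeR adjusted p = 0.166). LINC00963 had 13.3 and 13.1 CPM with cadmium, between the control values of 12.5 and 18.9 CPM. LINC00346, now PRECSIT, had 11.4 and 12.7 CPM with cadmium against 13.0 and 10.5 CPM in control. LINC00662 had 2.45 and 3.86 CPM with cadmium against 4.07 and 3.09 CPM in control. In these last 3 the groups overlapped, and the log2 fold changes were -0.21, 0.012 and -0.25.

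The rest of the list showed the same. LINC00941 had 0.817 and 1.08 CPM with cadmium against 1.23 and 0.832 CPM in control. LINC00467 had 1.76 and 1.46 CPM with cadmium against 1.07 and 1.66 CPM in control. Both RNAs had overlapping groups. LINC00472 had 3.01 and 4.12 CPM with cadmium against 3.91 and 3.80 CPM in control. LINC00641 had 4.44 and 5.19 CPM with cadmium against 5.30 and 4.28 CPM in control. All 4 had adjusted p above 0.5 by edgeR, and LINC00704, LINC01133, LINC00261 and LINC00462 of the same list had 0 reads in every library.

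RefSeq now lists 10 of the 96 under a protein-coding gene, among them MTLN, SMIM26, SMIM30, SMIM45 (LINC00634) and BRD3OS. Of these 1 was higher, LINC00950, listed only as a synonym of its neighbour TMEM8B, and 1 lower, LINC00116. The median log2 fold change of the 10 was -0.018. For this and the classes below, 8.77% of all genes were higher and 7.5% lower. Among genes with a noncoding RefSeq identifier the shares were 3.58% and 2.17%. Of a list of 10 LINC symbols known for small proteins, 3 had 40 or more reads, and LINC00116 was the only one of these called. The 68 that kept their LINC name had 2 calls, both higher, at a median of 0.24. A further 8 carry a lncRNA name of their own, such as NORAD, CYTOR and OLMALINC, with a median of -0.11. Of the remaining 10, 5 are named as divergent transcripts of a neighbour with a median of 0.44 and 3 as antisense RNAs with a median of -0.29. The other 2 are named as host genes with a median of 0.34. None of these 10 was among the 5 called.

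The long noncoding RNAs without a LINC number give a frame for these values. Of a list of 20, 15 had 40 or more reads, 3 were higher with cadmium and 1 was lower, beside 8.77% and 7.5% of all genes and 3.58% and 2.17% of genes with a noncoding RefSeq identifier. MALAT1, an RNA of nuclear speckles, had 399 and 402 CPM with cadmium against 215 and 222 CPM in control (log2 fold change 0.87, SE 0.076, edgeR adjusted p = 0.00188). NEAT1, the scaffold of paraspeckles, had 863 and 893 CPM with cadmium against 503 and 666 CPM in control (log2 fold change 0.59, SE 0.13, edgeR adjusted p = 0.0234). MIAT was higher and DANCR lower, with log2 fold changes of 1.68 and -0.64 (edgeR adjusted p = 0.0424 and 0.0131). NORAD, on the same side as MALAT1 and NEAT1, had the smaller log2 fold change of 0.26.

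By position, the 96 LINC RNAs lay on 22 chromosomes, with 11 on chromosome 1. In the deposited hg19 annotation 81 overlapped no other gene and 15 did, of which 9 overlapped one with 40 or more reads. The nearest coding gene with 40 or more reads lay at a median of 23142.5 bases, and within 5 kb for 22 of the 96. None of the 5 called RNAs overlapped another gene.

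Of the pairs of a LINC RNA and its nearest coding gene, that of LINC00263 and SCD was the one in which both passed. SCD makes stearoyl-CoA desaturase, which puts a double bond into saturated fatty acids, and it lies 8745 bases from LINC00263 on the same strand. It had 325 and 437 CPM with cadmium against 174 and 149 CPM in control, with both cadmium libraries above both controls. Its log2 fold change was 1.23 (SE 0.15, edgeR adjusted p = 0.00658). SEC31B, 98292 bases away, was also higher, with 12.6 and 10.9 CPM with cadmium against 6.64 and 6.77 CPM in control (log2 fold change 0.82, SE 0.18, edgeR adjusted p = 0.0200). BLOC1S2, 86864 bases away, had 14.9 and 14.6 CPM with cadmium against 21.6 and 18.4 CPM in control and did not pass (log2 fold change -0.45, SE 0.14, edgeR adjusted p = 0.0636). The remaining genes listed within 200 kb, ERLIN1, CHUK, CWF19L1, NDUFB8 and HIF1AN, had log2 fold changes from -0.19 (NDUFB8) to 0.12 (HIF1AN), with edgeR adjusted p from 0.153 to 0.887.

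Near LINC01273, CEBPB, a stress-responsive transcription factor, lies 13912 bases away and had 257 and 265 CPM with cadmium against 172 and 225 CPM in control. Its log2 fold change of 0.40 (SE 0.12) did not pass (edgeR adjusted p = 0.0597). TMEM189, 18772 bases away, and UBE2V1, 56611 bases away, had log2 fold changes of -0.032 and -0.32 (edgeR adjusted p = 0.861 and 0.183). The gene model TMEM189-UBE2V1, which spans both, had 0.43 (edgeR adjusted p = 0.0647). SNAI1 had 7.81 and 4.62 CPM with cadmium against 1.96 and 0.950 CPM in control (log2 fold change 1.96, SE 0.37, edgeR adjusted p = 0.0142). The LINC RNAs LINC01270 and LINC01271 lie 116049 and 134040 bases from LINC01273 and overlap each other on opposite strands. Their log2 fold changes of 0.24 and 0.90 did not pass (edgeR adjusted p = 0.655 and 0.150). Within 200 kb of LINC00950, RECK was higher and HINT2 lower, with log2 fold changes of 0.57 and -0.66 (edgeR adjusted p = 0.0228 and 0.0252).

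Across all 96 pairs the log2 fold changes had a Pearson correlation of 0.256 and a Spearman correlation of 0.27. These are across genes of the same 4 libraries, which are no independent replicates, and some pairs share a coding gene. Within 5 kb the values were 0.059 and 0.121 over 22 pairs, and beyond 5 kb they were 0.283 and 0.293 over 74. Leaving out LINC00263 gave a Pearson correlation of 0.194. The nearest coding gene passed for 18 of the 96 LINC RNAs, a share near the 16.3% of all genes called. LINC00263 was the only one of these 18 that itself passed, where 5.21% of all 96 did. LINC01137, now LITATS1, starts 75 bases from ZC3H12A on the other strand and had a log2 fold change of 0.46 (edgeR adjusted p = 0.272), beside 0.55 for ZC3H12A (edgeR adjusted p = 0.0132). LINC00094 had a log2 fold change of 0.022 and overlaps BRD3, whose own was 0.40 (edgeR adjusted p = 0.0493). LINC00342 had a log2 fold change of 0.47, with its nearest coding gene DUSP2 at -1.41, 316179 bases away.

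**Figure D5:**
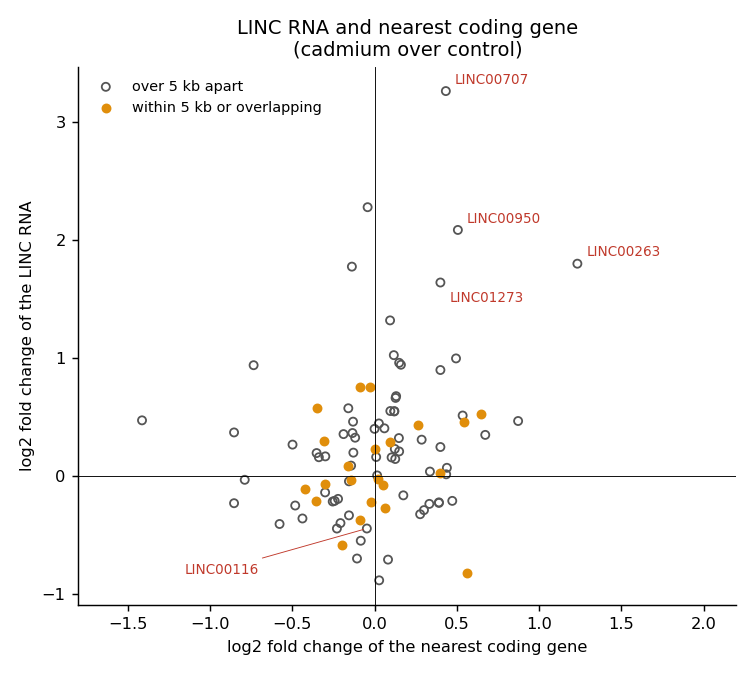
Log2 fold change, cadmium over control, of each of the 96 LINC RNAs (y axis) against that of its nearest coding gene (x axis); filled points are the 22 pairs within 5 kb or overlapping, and the 5 LINC RNAs that passed are named. LINC00263 and SCD lie together at the upper right, at 1.80 and 1.23.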

How the data were processed

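RNA was measured in 4 libraries, 2 with cadmium and 2 control, grouped by title. Per the labels' protocols, a TruSeq RNA kit was used, which as background selects polyadenylated RNA and does not mark strand; RNAs without a poly(A) tail would be missed. The submitters' processing notes name STAR 2.4, DESeq, DESeq2 and hg19, without roles; which counter and annotation were used, and whether strand was, is not given in the sources used here. In the deposited tables each library has raw whole-number counts by RefSeq gene and, per the file headers, RPKM beside them. The comparison table deposited by the authors has mean RPKM per group, a log ratio, read here as log2, and a p-value with its adjusted p-value.

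From the counts, genes with at least 40 reads over the 4 libraries were fitted in R 4.3.3 with edgeR 4.0.16 (TMM scaling, robust glmQLFit and glmQLFTest, the group alone), with Benjamini-Hochberg adjustment over 13594 genes and a threshold of 0.05. CPM are TMM-scaled. Each SE is the log2 fold change divided by the root of edgeR's F. Alternatives used DESeq2 1.42.0, limma-voom 3.58.1, other scalings and filters, the replicate number as a block, counts thinned to equal depth and each library left out. DESeq2's adjusted p was absent for 27 of the 96 LINC RNAs. An exact permutation test of 2 against 2 cannot go below p = 0.333, so none was used. The procedure was tested on simulated data. Precision is limited by depth, which ran from 8609243 to 29937242 reads per library.

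The members and lists were chosen with earlier results of these data known. Named were the LINC RNAs that passed without overlap between the groups, the 6 of highest mean RPKM and the members of the lists of small-protein and described LINC RNAs; the neighbours, LINC00998, the RNAs near the threshold and the 5 with the lowest fold changes were added after their values were seen. All 96 LINC RNAs were matched to RefSeq GRCh38.p14 for current names, 86 by accession, 1 by symbol and 9 by synonym. For 72 a promoter in that table was used. Where the synonym belonged to a neighbouring coding gene (TMEM8B, CCDC80 or SYNE3), the promoter of that gene was not used. Distances use the deposited hg19 coordinates, counted from 1, and the builds were not mixed. Same-numbered libraries did not deviate together, so the numbers were not taken to pair them.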

Additional observations from a re-analysis of the deposited data

How the results depend on the processing

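The 4 LINC RNAs higher and 1 lower with cadmium were recounted under each alternative. The count higher was 7 with scaling by library size alone, 9 without a filter, 1 with DESeq2, 8 with limma-voom and 2 with counts thinned to equal depth, where 15.5%, 17.2%, 14.4%, 19.7% and 13.2% of all genes were called in either direction, in the same order. It was 1 among LINC RNAs with 100 or more reads. The count lower was 0 with the replicate block, with library size alone, with DESeq2 and with thinned counts. Leaving out each library gave 2 to 11 higher and 0 to 1 lower; without control replicate 2 it was 11 and 1, without control replicate 1 it was 2 and 1, and without either cadmium library it was 2 and 0. All genes were called in either direction at 25.7% without control replicate 2, 14.9% without control replicate 1, 4.16% without cadmium replicate 1 and 5.49% without cadmium replicate 2. For DESeq2, 4 LINC RNAs higher and 1 lower had an unadjusted p under 0.05. The median log2 fold change of the 96 ran from -0.015 without control replicate 1 to 0.26 without control replicate 2. Library size alone moved the median of all genes by 0.059 and their calls to 1430 higher and 674 lower, against 1192 and 1020.

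With the replicate block 3 LINC RNAs were higher, where 14.5% of all genes were called in either direction. The correlation of the deviations of same-numbered libraries was -0.134 over all genes and -0.249 over genes of 5 CPM or more. The pairing thus has no support in the data. A crossed pairing, added after the data were seen, gave 5 higher and 1 lower, where 22.2% of all genes were called in either direction.

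Among 24 LINC RNAs followed one by one, LINC00263 kept its call in all 13 alternatives. Of their 312 values, 17 lost a call, 20 gained one and 17 changed sign, none of these 17 for a called RNA. LINC00346 turned to -0.039 with limma-voom. LINC00641 turned to 0.028 with library size alone and 0.0086 with the crossed pairing, LINC00493 to -0.00030 with the crossed pairing, and LINC00941 to 0.34 with thinned counts. The other changes of sign came from leaving out a library, over which the log2 fold change ran from -0.12 to 0.19 for LINC00346, from -0.15 to 0.16 for LINC00641, from -0.059 to 0.058 for LINC00493 and from -0.41 to 0.15 for LINC00941. It ran from -0.065 to 0.10 for LINC00094, from -0.025 to 0.60 for LINC00467, from -0.57 to 0.082 for LINC00662, from -0.36 to 0.094 for LINC00472 and from -0.52 to 0.076 for LINC00963. The causes were not tested.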
